A study of Homo sapiens with 9 samples.

Results

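Cytoplasmic ribosomal proteins are the protein part of the ribosome that translates nuclear-encoded mRNA. Their genes were taken from the table of counts as the protein-coding rows whose symbol was RPL or RPS with a number (and a closing A, X or L where there is one), together with RPLP0, RPLP1, RPLP2 and RPSA. This gave 82 rows of 32990 genes in all, under 81 symbols, because RPL41 was listed on chromosome 12 and again as a short copy on chromosome 7. Of the 82, 50 encode proteins of the large subunit and 32 of the small subunit, and 80 passed the filter on low counts and were tested. RPL3L and RPL10L did not pass it.

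The RNA came from 3 human liver cancer cell lines, Hep3B, Huh7 and SNU449, each as an untreated control and after THZ531 at 250 nM and at 500 nM. THZ531 binds covalently to CDK12 and CDK13, kinases that phosphorylate RNA polymerase II during transcription. Each line and dose gave 1 library of polyadenylated RNA, so 9 libraries were compared, and no label names separate cultures. All p-values therefore measure only the spread between these libraries. Treatment lasted 48 h in every treated library by the sample labels, but by the treatment protocol only SNU449 had 48 h and the other lines had 24 h. If the protocol holds, time and line cannot be told apart where SNU449 is compared with the other lines.

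Every ribosome holds 1 copy of nearly all of these proteins, and cells keep their supply balanced mainly by translation and by degrading unassembled protein. Most of their mRNAs start with a run of pyrimidines, the 5′ terminal oligopyrimidine (TOP) element, through which mTOR signalling and LARP1 control their translation. The genes are short, very highly expressed, and many carry small nucleolar RNA (snoRNA) genes in their introns. In these data 28 of the 82 rows held a total of 60 snoRNA genes, and the median gene length of the ribosomal protein genes was 5523 bases against 28522 for all tested genes.

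The start-site windows below show the bases around the RefSeq start, where a pyrimidine element would lie. They cover genes on which the later results turn, 4 that were called higher within Hep3B and Huh7 and 4 that were not. Each window runs from 25 bases before the RefSeq start to 15 bases from it, 5′ to 3′ on the coding strand, in build GRCh38.p14. Capitals mark the longest unbroken run of C and T within 5 bases of the start. In RPL7A the run goes on 1 base past the end of the window. RPLP0 lies at chr12:120201097-120201136 on the minus strand, RPL41 at chr12:56116608-56116647 on the plus strand, RPL18 at chr19:48619164-48619203 on the minus strand and RPS15 at chr19:1438371-1438410 on the plus strand. RPL7A lies at chr9:133348193-133348232 on the plus strand, RPL14 at chr3:40457314-40457353 on the plus strand, RPS6 at chr9:19380222-19380261 on the minus strand and RPS27L at chr15:63157463-63157502 on the minus strand.
RPLP0: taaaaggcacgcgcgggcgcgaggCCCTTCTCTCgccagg
RPL41: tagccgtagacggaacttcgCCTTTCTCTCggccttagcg
RPL18: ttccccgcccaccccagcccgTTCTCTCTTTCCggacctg
RPS15: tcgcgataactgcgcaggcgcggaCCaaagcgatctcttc
RPL7A: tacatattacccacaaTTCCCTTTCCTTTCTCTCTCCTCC
RPL14: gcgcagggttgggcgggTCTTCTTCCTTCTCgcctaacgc
RPS6: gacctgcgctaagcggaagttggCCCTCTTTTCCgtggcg
RPS27L: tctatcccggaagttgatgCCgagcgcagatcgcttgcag

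The RefSeq promoter table held 64 of the 81 symbols. Of these 64, 49 (76.6%) had a run of at least 7 pyrimidines at the start, against 15.7% of 27305 promoters of all genes, and the median run was 11 against 4 bases. Long runs stood both in genes that rose and in genes that did not: the run was 10 bases in RPLP0 and RPL41, and 25 bases in RPL7A. In RPS15, called higher, and in RPS27L, not called, it was 2 bases. Each run rests on the RefSeq start alone, which can lie far from the gene start given with the counts (19677 bases in RPL4). Other start sites of these genes were not examined.

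As a whole, ribosomal protein genes took a larger share of the RNA in treated Hep3B and Huh7 cells and a slightly smaller one in treated SNU449 cells. In Hep3B they held 3.10% of all counts in the control (95% exact binomial interval 3.10 to 3.11), 4.71% at 250 nM (4.70 to 4.72) and 5.22% at 500 nM (5.20 to 5.23). In Huh7 the share was 3.17% (3.16 to 3.18), 4.50% (4.49 to 4.52) and 5.55% (5.54 to 5.57). For SNU449 cells the values were 3.69% (3.68 to 3.70) untreated, 3.46% (3.45 to 3.47) at 250 nM and 3.31% (3.31 to 3.32) at 500 nM. The share at 500 nM was thus 1.68 times the control in Hep3B, 1.75 times in Huh7 and 0.898 times in SNU449. These intervals cover counting error only, and no replicate of a line and dose gives the spread between cultures.

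The total count fell from 20657610 to 11582266 in Hep3B and from 14423043 to 5701981 in Huh7 between control and 500 nM, and lay between 12875070 and 15553604 in SNU449. The ribosomal protein genes together fell less in raw counts, from 641119 to 604130 in Hep3B and from 457532 to 316720 in Huh7. The share of counts from the mitochondrial genome moved with the ribosomal protein share, from 4.28% to 12.4% in Hep3B and from 3.85% to 13.1% in Huh7, against 4.32% and 4.47% in SNU449. With mitochondrial counts left out of the total, the ribosomal protein share at 500 nM was 1.84, 1.94 and 0.900 times the control in Hep3B, Huh7 and SNU449. The summed counts of 8 hepatocyte markers ran from 314576 to 577928 in the Hep3B and Huh7 libraries and from 105 to 143 in SNU449. Vimentin was the most abundant mesenchymal marker in every line. Among the controls, raw counts of vimentin and ZEB1 were highest in SNU449 and those of CDH2 and COL6A1 in Huh7, and SNAI2 had 0 in SNU449. Counts are shares of the RNA in a library, so more ribosomal protein mRNA in each cell and less of other mRNA cannot be told apart.

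**Figure D1:**
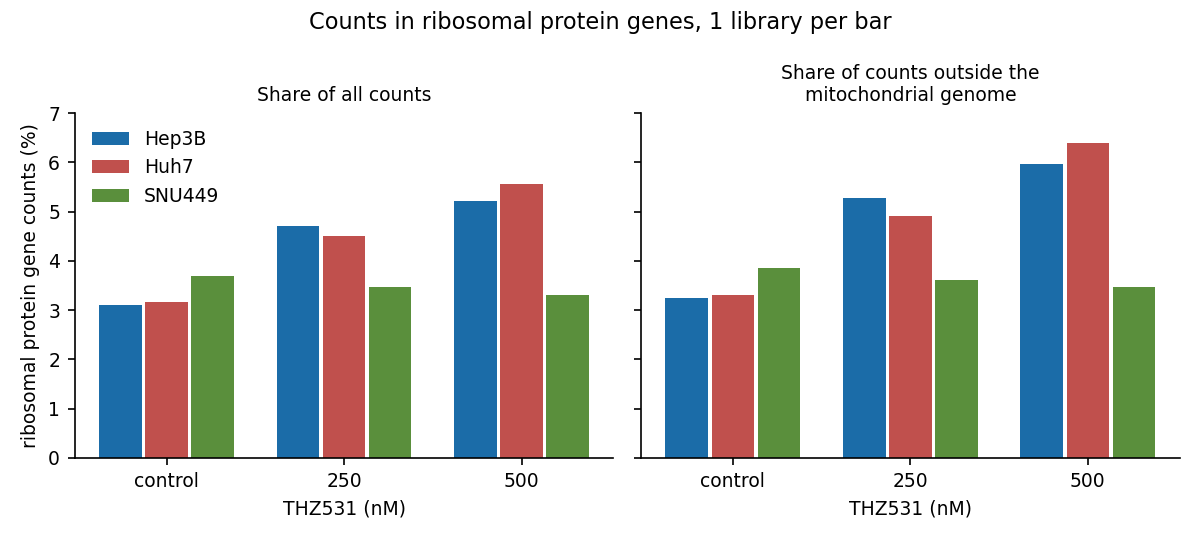
Percent of counts in the 82 ribosomal protein rows (vertical axis) by THZ531 dose (horizontal axis), as a share of all counts (left) and of counts outside the mitochondrial genome (right), with 1 bar per library coloured by cell line. The bars climb with dose in Hep3B and Huh7, to 5.22% and 5.55% of all counts at 500 nM, and step down in SNU449 from 3.69% to 3.31%.

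For each gene, the log2 ratio of a treated library to the control of its line was taken from library-scaled counts (CPM, with edgeR's TMM factors), with a prior count of 2. In Hep3B the median ratio of the 80 tested ribosomal protein genes was 0.88 at 250 nM and 1.27 at 500 nM, while the median of all 15479 tested genes was -0.07 and -0.03. In Huh7 it was 0.81 and 1.49, against 0.00 and -0.07 for all genes. In SNU449 it was -0.11 and -0.12, against 0.00 and 0.01. The group thus stood above the middle of all genes in both doses of Hep3B and Huh7, and slightly below it in SNU449.

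At 500 nM, 56 of the 80 genes were at least 2-fold above the control in Hep3B and 0 were at least 2-fold below, where 18.6% of all tested genes were that far above and 13.1% that far below. In Huh7, 60 were at least 2-fold above and 1 was at least 2-fold below, against 24% and 19.3% of all genes. In SNU449 no ribosomal protein gene moved 2-fold at either dose. These ratios depend on the scaling. Dividing by total counts in place of TMM lowers every ratio by 0.42 and 0.59 in Hep3B (250 and 500 nM), by 0.49 and 0.95 in Huh7, and changes SNU449 by 0.02 at most.

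**Figure D2:**
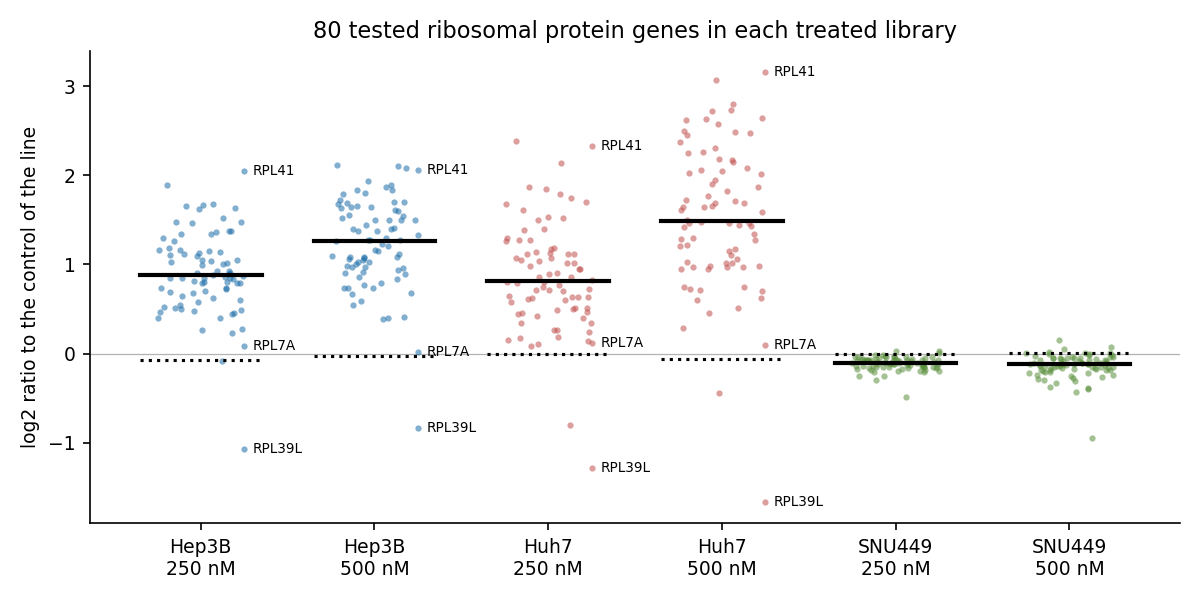
Log2 ratio of each treated library to the control of its line (vertical axis) for the 80 tested ribosomal protein genes, 1 point per gene, with the median of these genes as a solid line and the median of all 15479 tested genes as a dotted line. The solid line lies at 1.27 in Hep3B and 1.49 in Huh7 at 500 nM, with RPL39L at the bottom of both, and at -0.12 in SNU449.

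The first test asked whether a dose shifted these genes across all 3 lines, with each line compared with its own control and n = 3 lines per dose. None of the 80 passed at 500 nM in edgeR's quasi-likelihood test with Benjamini-Hochberg adjustment, where 3.45% of all tested genes were called higher and 0.724% lower. The fitted log2 fold change was positive for 77 of the 80. The median was 0.86 against -0.05 for all genes (0.34 for the group with total-count scaling). An unadjusted edgeR p under 0.05 was found for 49 of the 80, against 4476 of all 15479 tested genes. The smallest adjusted p was 0.0618, for RPS29, a small-subunit protein mutated in some families with Diamond-Blackfan anaemia. Its TMM-scaled CPM for control, 250 and 500 nM was 76.2, 174 and 253 in Hep3B, 54.1, 130 and 281 in Huh7, and 87.6, 81.1 and 86.5 in SNU449. Both treated libraries of Hep3B and Huh7 stood above their controls, and those of SNU449 did not.

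The calls were repeated under alternatives, for which no share of all tested genes is given, here or below. Their counts show only how the calls depend on the setting. DESeq2 called 30 of the 80 higher at 500 nM, limma-voom 3, and edgeR 28 without the filter on low counts and 5 with total-count scaling. The count in edgeR rose to 72 without the SNU449 libraries and to 47 without the SNU449 500 nM library alone, and was 5 without the Hep3B 250 nM library. At 250 nM none passed in edgeR, DESeq2 or limma-voom (median 0.49), where 1.21% of all genes were called in edgeR. An unadjusted edgeR p under 0.05 was found for 6 of the 80, a smaller share than the 2717 of all 15479 tested genes. Without the SNU449 libraries, 44 were called higher and 1 lower at 250 nM. Between 500 and 250 nM the median was 0.37 and none passed in any of the 3 tools, where edgeR called 0% of all genes. An unadjusted edgeR p under 0.05 was found for 0 of the 80, against 339 of all 15479 tested genes.

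The second test asked which genes differed from control within a line, taking both doses together as a treated pair against 1 control. In this fit, which also gave the differences between lines below, the spread came only from differences between the 250 and 500 nM libraries. Its p-values hold no spread between controls or between replicate cultures. In Hep3B, 21 of 80 were called higher and 0 lower, where 9.82% of all tested genes were called higher and 6.72% lower. In Huh7, 37 were called higher and 1 lower, where 13.3% of all genes were called higher and 6.04% lower. In SNU449 none was called in edgeR, DESeq2 or limma-voom, where edgeR called 0% of all genes. An unadjusted edgeR p under 0.05 was found in this line for 0 of the 80, against 68 of all 15479 tested genes. There 77 of the 80 had a negative fitted change, with a median of -0.11. All 21 genes called higher in Hep3B were also called higher in Huh7, which is 100% of the Hep3B list and 56.8% of the Huh7 list. The overlap of calls over all tested genes is not given. Over all tested genes the ratios of these lines also followed each other (Spearman's rho 0.68 at 250 nM and 0.70 at 500 nM), so this overlap is not shown to be particular to the group. The controls of these lists are separate libraries, but the fit shares its estimate of the spread.

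These calls rest on few libraries, and the counts below again stand without a share of all genes. In Hep3B, 0 were called without the 250 nM or without the 500 nM library of that line, and 68 without the Huh7 libraries or without either treated Huh7 library. Without SNU449, or without its 250 or 500 nM library, 10, 11 and 10 were called in Hep3B. In Huh7, 12 were called without Hep3B or either of its treated libraries, and 67 without the Huh7 250 nM library. With total-count scaling 15 were called higher in Hep3B and 19 in Huh7, DESeq2 called 54 and 51, and limma-voom 41 and 44. The group median under total-count scaling was 0.56 in Hep3B and 0.51 in Huh7, against 1.07 and 1.26 with TMM.

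The acidic stalk proteins RPLP0, RPLP1 and RPLP2 form the flexible arm of the large subunit that recruits translation factors, and all 3 rose in both Hep3B and Huh7. RPLP0, which anchors the stalk, had a CPM of 647, 2035 and 2251 for control, 250 and 500 nM in Hep3B, 608, 2673 and 5108 in Huh7, and 893, 847 and 843 in SNU449. In Huh7 its raw count went up from 10986 to 18928 although the library total fell. Its log2 fold change was 1.73 ± 0.45 (SE) in Hep3B and 2.68 ± 0.48 in Huh7 (edgeR adjusted p = 0.0246 and 0.00477).

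RPLP1 stood at 341, 947 and 1250 CPM in Hep3B, 462, 1336 and 2855 in Huh7, and 564, 541 and 534 in SNU449. RPLP2 stood at 337, 969 and 1253 in Hep3B, at 165, 556 and 1102 in Huh7, while SNU449 gave 291, 280 and 307. The treated libraries of Hep3B and Huh7 lay above every control for each of these 3 genes. The log2 fold changes were 1.69 ± 0.48 and 2.18 ± 0.49 for RPLP1, and 1.72 ± 0.46 and 2.33 ± 0.47 for RPLP2, in Hep3B and Huh7 (edgeR adjusted p between 0.00797 and 0.0341).

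RPL41, the smallest protein of the ribosome, gave the smallest p within both lines. Its CPM was 131, 545 and 550 in Hep3B, 153, 771 and 1369 in Huh7, and 109, 109 and 106 in SNU449. All 4 treated libraries of Hep3B and Huh7 lay above all other libraries. The log2 fold change was 2.06 ± 0.42 in Hep3B and 2.80 ± 0.44 in Huh7 (edgeR adjusted p = 0.00965 and 0.00278). The chromosome 7 copy, at 2.70 CPM or less in every library, also passed in both lines, but reads cannot be split reliably between it and the gene on chromosome 12.

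Within Hep3B the large-subunit proteins with the next smallest p were RPL18 and RPL35. RPL18 rose from 258 to 958 and 1115 CPM in Hep3B and from 333 to 1154 and 2196 in Huh7, and read 420, 408 and 395 in SNU449. Its log2 fold change was 2.01 ± 0.45 and 2.33 ± 0.46 (edgeR adjusted p = 0.0136 and 0.00706). RPL35, which sits at the exit of the peptide tunnel, rose by 1.74 ± 0.41 in Hep3B and 1.84 ± 0.42 in Huh7 on the log2 scale (edgeR adjusted p = 0.0169 and 0.0124). Both genes thus passed in Hep3B and in Huh7.

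In the small subunit, RPS2, RPS15 and RPS18 led. RPS2, which lies near the mRNA entry channel, stood at 565, 1739 and 2399 CPM in Hep3B, 597, 1824 and 3701 in Huh7, and 723, 684 and 648 in SNU449. RPS15, whose tail reaches the decoding centre, stood at 326, 1035 and 1247, then 238, 856 and 1662, and 202, 196 and 176 in the same order. RPS18, part of the head of the subunit, stood at 814, 2272 and 2567, then 443, 1626 and 2776, and 640, 595 and 643. In each case the treated Hep3B and Huh7 libraries lay above all controls and SNU449 libraries. The log2 fold changes in Hep3B and Huh7 were 1.87 ± 0.48 and 2.21 ± 0.49 for RPS2, 1.81 ± 0.45 and 2.40 ± 0.47 for RPS15, and 1.57 ± 0.42 and 2.31 ± 0.44 for RPS18 (edgeR adjusted p between 0.00622 and 0.0278).

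Both subunits were represented among the calls, against 9.82% of all tested genes called higher in Hep3B and 13.3% in Huh7. Of 48 tested large-subunit genes, 13 were called higher in Hep3B and 21 in Huh7, with medians of 1.0 and 1.23. Of 32 small-subunit genes, 8 and 16 were called, with medians of 1.13 and 1.30. Large-subunit genes held 59.2% of ribosomal protein counts in the Hep3B control and 56.2% at 500 nM, 63.0% and 61.5% in Huh7, and 62.8% in both SNU449 libraries. Of the 28 snoRNA hosts, 7 and 11 were called higher in Hep3B and Huh7, with medians of 1.11 and 1.15, against 14 and 26 of the 52 tested genes with no snoRNA inside (medians 1.02 and 1.28). Of 19 genes linked to Diamond-Blackfan anaemia, an inherited red cell aplasia, 6 and 9 were called higher.

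Other genes followed for their known roles gave mixed results. RPL5 and RPL11, which with 5S rRNA form the particle that binds MDM2 and so stabilizes p53, did not pass in either line, with changes somewhat below the group medians of 1.07 in Hep3B and 1.26 in Huh7. RPL5 had a log2 fold change of 0.89 ± 0.35 in Hep3B and 0.86 ± 0.35 in Huh7, and RPL11 of 0.89 ± 0.36 and 1.01 ± 0.36 (edgeR adjusted p between 0.0701 and 0.106). RPS6, the main ribosomal target of S6 kinase, stood at 739, 1029 and 1371 CPM in Hep3B, 619, 680 and 1016 in Huh7, and 671, 618 and 595 in SNU449, and did not pass (0.70 ± 0.39 and 0.45 ± 0.38, edgeR adjusted p = 0.226 and 0.428). RPSA, which doubles as a laminin-binding protein, gave 1.34 ± 0.45 and 1.19 ± 0.45 (edgeR adjusted p = 0.0628 and 0.084). RPS27A, made as a fusion with ubiquitin, passed in Huh7 (1.32 ± 0.40, edgeR adjusted p = 0.0404) and gave 1.08 ± 0.40 in Hep3B (adjusted p = 0.0812).

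RPL7A, a large-subunit protein, stayed close to the middle of all genes, at 542, 576 and 547 CPM in Hep3B, 1076, 1170 and 1148 in Huh7, and 695, 607 and 587 in SNU449. Its log2 fold change was 0.05 ± 0.33 in Hep3B and 0.11 ± 0.33 in Huh7 (edgeR adjusted p = 0.944 and 0.861). RPL14, another large-subunit protein, stood at 245, 289 and 320 in Hep3B, 285, 317 and 392 in Huh7, and 372, 337 and 343 in SNU449. Its log2 fold change was 0.31 ± 0.33 in both lines (edgeR adjusted p = 0.539 and 0.537). A p that misses the threshold does not show that these genes did not change. At 500 nM across lines, the fitted changes of RPL7A (-0.05), RPS27L (-0.02), RPL14 (0.24) and RPL17 (0.29) were the lowest after RPL39L (-0.89), none of them past the test. Total-count scaling turned RPL14 and RPL17 to -0.28 and -0.22.

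RPL39L, a paralog of RPL39 best known from male germ cells, went the other way. Its CPM was 17.9, 8.45 and 9.99 in Hep3B, 12.3, 4.96 and 3.78 in Huh7, and 3.44, 3.52 and 3.10 in SNU449. It was the only ribosomal protein gene called lower in Huh7 (-1.46 ± 0.36, edgeR adjusted p = 0.0183), and the change in Hep3B was -0.96 ± 0.33 (adjusted p = 0.0666). RPL39 itself rose by 1.52 ± 0.42 in Hep3B and 2.15 ± 0.43 in Huh7 (edgeR adjusted p = 0.0295 and 0.00742). The count of RPL39L as a share of the pair, which needs no scaling, went from 11.7% (95% exact interval 10.7 to 12.7) to 2.34% (1.91 to 2.84) and 2.31% (1.86 to 2.83) in Hep3B. The Huh7 values went from 8.24% (7.23 to 9.34) to 1.10% (0.782 to 1.51) and 0.487% (0.266 to 0.815). SNU449 libraries gave 1.74% (1.32 to 2.25) untreated, 1.96% (1.48 to 2.56) at 250 nM and 1.42% (1.07 to 1.84) at 500 nM, and these 3 intervals overlap.

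RPS27L, a paralog of RPS27 known as a p53 target, also held a smaller share of its pair in the treated libraries of Hep3B and Huh7. It held 14% (13.3 to 14.7), 6.59% (6.12 to 7.09) and 6.87% (6.40 to 7.37) of the pair's counts in Hep3B, and 33.6% (32.4 to 34.8), 11.7% (10.7 to 12.7) and 8.21% (7.33 to 9.14) in Huh7. In SNU449 it held 7.59% (6.87 to 8.36), 8.50% (7.64 to 9.42) and 9.81% (8.92 to 10.7), so there the share at 500 nM was above that of the control beyond counting error. RPS27L itself did not pass in either line (0.18 ± 0.33 in Hep3B and -0.62 ± 0.32 in Huh7, edgeR adjusted p = 0.747 and 0.2), while RPS27 rose by 1.67 ± 0.45 in Huh7 (adjusted p = 0.0247) and gave 1.35 ± 0.44 in Hep3B (adjusted p = 0.0555). RPL3L, a striated-muscle paralog of RPL3, was listed at 0 counts in the 3 controls, at 10 and 10 in treated Hep3B, at 2 and 1 in treated Huh7 and at 1 and 0 in treated SNU449. RPL10L, a testis paralog of RPL10, was at 7, 2 and 1 counts in Huh7 and at 0 in all other libraries.

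**Figure D3:**
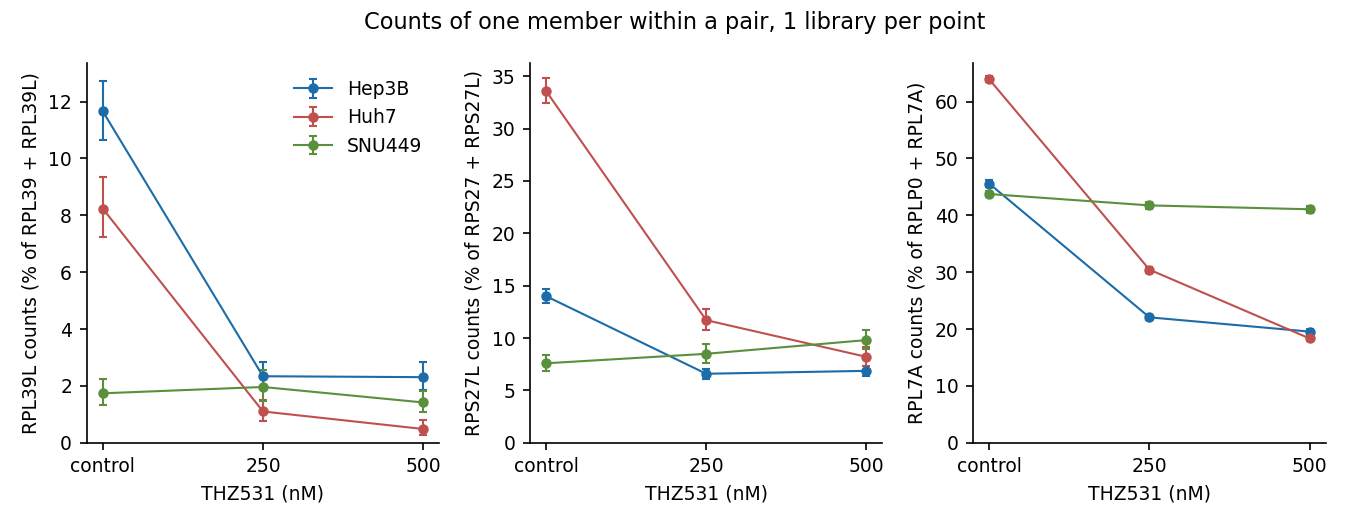
Counts of RPL39L, RPS27L and RPL7A as a percent of the pair with RPL39, RPS27 and RPLP0 (vertical axes) by THZ531 dose (horizontal axes), with 1 library per point and exact 95% binomial intervals as bars. All 3 percentages are lower in both treated libraries of Hep3B and Huh7 than in their controls, with RPL39L at 2.31% and 0.487% at 500 nM.

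The share of each gene in the summed ribosomal protein counts of its library gives the composition of the group without any scaling between libraries. Of 79 genes with at least 50 counts in every control, 25 held a larger share in all 4 treated libraries of Hep3B and Huh7, 38 a smaller share and 16 were mixed. The doses of a line share a control. At 500 nM, where Hep3B and Huh7 have separate controls, 72 of 79 shares moved in the same direction in both lines. The numbers in the same direction with SNU449 were 50 for Hep3B and 49 for Huh7. The spread of these changes (SD over genes of the log2 ratio of shares at 500 nM) was 0.50 for Hep3B and 0.81 for Huh7. For SNU449 it was 0.11, and its largest single change was 0.30.

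The shares that rose most in both lines, by the smaller of the 2 changes at 500 nM, were those of RPL18 (log2 ratio of shares 0.77 in Hep3B and 0.97 in Huh7), RPS2 (0.75 and 0.88) and RPL41 (0.73 and 1.40). Those that fell most were RPL39L (-2.18 and -3.46), RPL7A (-1.33 and -1.66) and RPL14 (-0.96 and -1.30). As a ratio of raw counts, RPLP0 over RPL7A went from 1.19 to 3.53 and 4.11 in Hep3B, from 0.564 to 2.28 and 4.45 in Huh7, and from 1.29 to 1.40 and 1.43 in SNU449. The 10 most abundant genes of a library held 27.6% of ribosomal protein counts in the Hep3B control and 31.0% at 500 nM, 29% and 35.6% in Huh7, and 29.6% at both in SNU449.

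**Figure D4:**
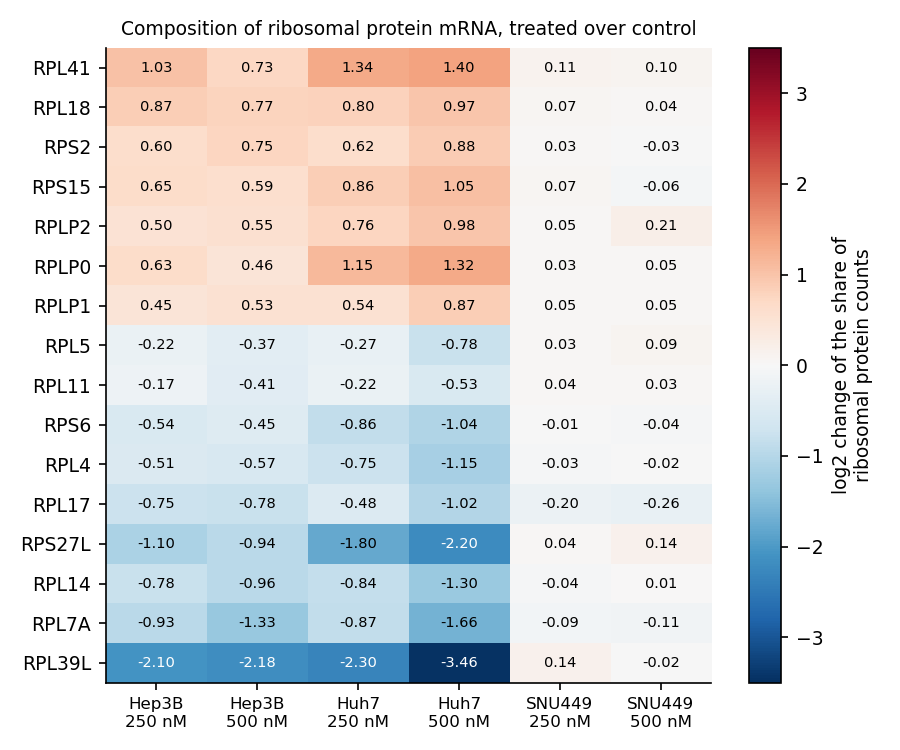
Log2 change, treated over control, of the share that each of 16 genes (rows) held in the summed ribosomal protein counts of a library (6 treated libraries in columns), with the value printed in each cell and red for a larger share. RPL41 reads 0.73 and 1.40 at 500 nM in Hep3B and Huh7, RPL7A -1.33 and -1.66, and the SNU449 columns stay between -0.26 and 0.21.

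The order of the 79 genes by log2 ratio was much the same in Hep3B and Huh7. Spearman's rho across genes was 0.92 at 250 nM and 0.91 at 500 nM, against 0.68 and 0.70 over all tested genes. The 79 genes had at least 50 counts in every control, while all tested genes include many without that minimum. A higher rho is therefore not shown to be particular to the group. With SNU449 it was 0.32 for Hep3B and 0.27 for Huh7 at 250 nM, and 0.26 and 0.28 at 500 nM. Genes within a library are not independent replicates, and each rho is a description only.

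**Figure D5:**
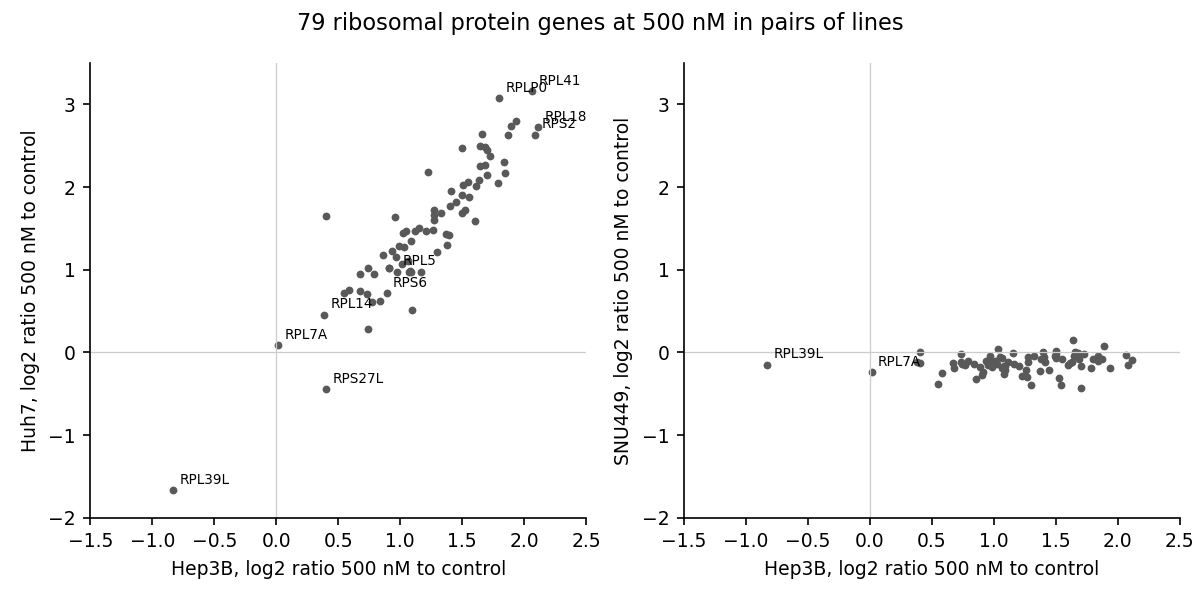
Log2 ratio of 500 nM to control for 79 ribosomal protein genes, 1 point per gene, in Hep3B (horizontal axes) against Huh7 (left) and SNU449 (right). The points follow a rising line on the left (Spearman's rho 0.91) from RPL39L at the bottom to RPL41 and RPLP0 at the top, and lie flat near 0 on the right (rho 0.26).

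Within the group, genes with a higher GC content of their exons had higher ratios at 500 nM in Hep3B (rho 0.44) and Huh7 (0.42). The same measure over all tested genes, again without the minimum of 50 counts, gave 0.20 and 0.29. The rho with gene length was -0.26 and -0.27 in the group and -0.32 and -0.45 over all genes, so longer genes had lower ratios in both. The level in the controls gave 0.13 and 0.12. The part of GC content and length in the gene-to-gene differences was not tested. The length of the pyrimidine run at the RefSeq start gave -0.19 in Hep3B and -0.11 in Huh7 over the 63 genes with a window. A run of at least 7 stood in 14 of 18 genes whose share rose in all 4 libraries and in 23 of 31 whose share fell, with medians of 10 and 12 bases.

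The third test set the responses of the lines against each other. The shares of all genes given for it belong to the main fit. Counts under alternatives again stand without such a share and show only the dependence on the setting. The difference between Huh7 and SNU449 passed for 2 of 80 genes, a count near the 1.58% of all genes called there. RPL41 responded 2.82 ± 0.56 higher on the log2 scale in Huh7 (edgeR adjusted p = 0.0314) and RPLP0 2.76 ± 0.60 higher (adjusted p = 0.0456). Both calls were lost with DESeq2 size factors, or without Hep3B or either treated Hep3B library, where 0 were called. DESeq2 called 28, limma-voom 8, and 55 were called without the Huh7 250 nM library and 7 without the Huh7 500 nM library. Without the 250 or the 500 nM library of SNU449, 1 was called.

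Between Hep3B and SNU449 the median difference was 1.21 and 79 of 80 were positive. An unadjusted edgeR p under 0.05 was found for 42, against 2483 of all 15479 tested genes. After adjustment none passed in edgeR or limma-voom and DESeq2 called 7, where edgeR called 0.342% of all genes. The count was 35 without Huh7 or without its 250 nM library, and 37 without its 500 nM library. Between Huh7 and Hep3B the median difference was 0.18 and none passed in any of the 3 tools, where edgeR called 0.00646% of all genes. An unadjusted edgeR p under 0.05 was found for 0 of the 80, against 1028 of all 15479 tested genes. The largest differences by p in that comparison were those of RPS27L (-0.79) and RPLP0 (0.95), with an edgeR adjusted p of 0.85 and 0.857.

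In the controls the 3 lines carried similar ribosomal protein profiles. Spearman's rho of the levels over 79 genes was 0.85 between Hep3B and Huh7, 0.83 between Hep3B and SNU449, and 0.88 between Huh7 and SNU449. Between the Hep3B and Huh7 controls 3 genes were at least 2-fold apart, where 30.3% of all tested genes were. These were RPS13, RPL27A and RPLP2, all higher in Hep3B (log2 ratios 1.03, 1.05 and 1.03). Between Hep3B and SNU449, 7 were that far apart against 39.7% of all genes, and between Huh7 and SNU449, 6 against 41.7%. RPL39L was 2.33 and 1.79 higher on the log2 scale in Hep3B and Huh7 than in SNU449, and RPS27L 1.40 and 2.26 higher. RPS12 and RPS26 were 1.21 and 1.26 higher in Hep3B than in SNU449. With 1 control a line, these differences have no replicate check.

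Per length, as the mean control CPM per kilobase of exon in GENCODE v29, the levels of RPS12 (614) and RPL8 (461) were among the 3 highest. The lowest were those of RPL3L (0.00), RPL10L (0.159) and RPL36A (1.34). RPL36A has 19 numbered pseudogenes in GENCODE v29. Whether reads shared with such copies lowered its count was not tested, so its level may be understated. RPL36A stood at 5.02, 6.93 and 6.70 CPM in Hep3B, 4.20, 7.45 and 13.5 in Huh7, and 6.77, 6.32 and 6.20 in SNU449. Exon length here joins the exons of all annotated transcripts, which understates the level of genes with long minor transcripts.

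Other parts of the translation machinery were read from lists written with earlier results of these data known, against the same 9.82% of all genes called higher in Hep3B and 13.3% in Huh7 (6.72% and 6.04% lower). Of 7 ribosomal protein paralogs and fusions outside the naming rule, 3 were called higher in Hep3B and 4 in Huh7. Their medians were 1.17 and 1.56, against -0.03 for all genes in each line. Among them FAU, which yields the small-subunit protein eS30, rose by 1.75 ± 0.39 and 2.20 ± 0.40 (edgeR adjusted p = 0.0134 and 0.00529). Of 14 translation factors whose mRNAs also carry a TOP element, 0 were called in Hep3B and 2 in Huh7, with medians of 0.58 and 0.49. Of 29 other initiation factors, 4 and 6 were called higher, with medians of 0.01 and 0.00. EIF4A1, the helicase of the cap-binding complex, was called across lines at 500 nM (1.59 ± 0.38, edgeR adjusted p = 0.0361), the only gene of that list to pass there. That call was lost in 6 of 16 alternatives, with an adjusted p of up to 0.638.

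Of 43 ribosome assembly factors, 2 were called higher in Hep3B, and 7 higher and 2 lower in Huh7 (medians -0.13 and 0.01). The Huh7 count is near the share of all genes. NOP56, a core protein of box C/D snoRNA particles that itself hosts snoRNAs, rose by 2.33 ± 0.49 and 3.37 ± 0.52 (edgeR adjusted p = 0.0106 and 0.00265). Of 10 regulators of ribosomal protein mRNA translation, such as MTOR and LARP1, 0 were called in either line (medians -0.35 and -0.23). Of 76 tested genes for the proteins of the mitochondrial ribosome, 6 were called higher and 3 lower in Hep3B, and 9 higher and 5 lower in Huh7. The medians were -0.15 and -0.10, and the counts are near the shares of all genes. MRPS27, of the small mitochondrial subunit, was the only one called across lines at 500 nM (-1.20 ± 0.31, edgeR adjusted p = 0.0463), and that call was lost in 8 of 16 alternatives, with an adjusted p of up to 0.66. Of the 13 protein genes of the mitochondrial genome, 10 were called higher in Hep3B and 12 in Huh7, with medians of 1.80 and 1.98. In SNU449 none of these lists had a called gene, and their medians lay between -0.04 and 0.08.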

How the data were processed

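The deposited table holds raw counts per Ensembl gene for 9 libraries of polyadenylated, stranded RNA, per the labels. The submitters' processing notes name HISAT2, HTSeq and GRCh38. Their versions, the annotation and the strand setting were not found in the labels. The values are whole numbers that the authors left unnormalized. From these counts, genes passing edgeR's filterByExpr on dose (15479 of 32990) were scaled by TMM and fitted with edgeR 4.0.16 (R 4.3.3) by the two-sided quasi-likelihood test and Benjamini-Hochberg adjustment across the 15479 genes (threshold 0.05). A dose fit had terms for line and dose (4 residual degrees of freedom). A line fit gave every line its own mean and its own treated term (3 residual degrees of freedom), so a difference between doses counted as spread. Standard errors are the fold change over the root of F. Within-line ratios used a prior count of 2. Total counts per library of 5701981 to 20657610 set the precision; intervals are exact binomial (scipy 1.17.1). Gene structures came from GENCODE v29, in which 64 of the 82 rows lay at the same place, and promoter windows from RefSeq (GRCh38.p14). Alternatives used DESeq2 1.42.0, limma 3.58.1, other scalings and left-out libraries.

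The ribosomal protein genes and all lists were chosen with earlier results of these data known, so the lists have no test of their own. Named genes were the stalk, the 5S particle, RPS6, RPSA, RPS27A, RPL41, 4 paralog pairs, the extremes of the 500 nM fit, the smallest p in each line and difference, the extremes per length and of the shares, and the smallest p of other lists, and some of these are not reported here. RPS29, MTOR, the RPLP0 to RPL7A ratio and control differences were chosen after their values were seen.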

Additional observations from a re-analysis of the deposited data

Results flagged for a closer look

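The response to THZ531 differed between Huh7 and SNU449 in a test of the difference itself for RPL41 (2.82 on the log2 scale) and RPLP0 (2.76). These 2 calls among 80 genes are near the 1.58% of all tested genes called in that comparison. Each call was lost in 6 of 13 alternatives, and by the treatment protocol the hours of treatment differ between these lines.

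The share of counts in ribosomal protein genes moved in opposite directions by line. It was 1.52 and 1.68 times the control at 250 and 500 nM in Hep3B and 1.42 and 1.75 times in Huh7, against 0.938 and 0.898 times in SNU449. This difference between lines was not tested, and no line and dose has a replicate.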

How the results depend on the processing

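The composition needs no scaling between libraries. The fold of the summed share depends on the total it is divided by. At 500 nM it was 1.68 in Hep3B and 1.75 in Huh7 with all counts, and 1.84 and 1.94 without mitochondrial counts. Counts of calls moved widely. No share of all tested genes is given for the alternatives, so these counts show only the dependence on the setting. At 500 nM across lines, total-count scaling called 5 higher and 1 lower, the same without the mitochondrial genome 6 and 1, no filter 28 higher, DESeq2 30 and limma-voom 3. At 250 nM no filter called 4. Leaving out a line or treated library gave 0 to 72 higher and 0 to 1 lower at 500 nM, and 0 to 44 higher and 0 to 1 lower at 250 nM. Within Hep3B, no filter called 34 higher, DESeq2 54 and limma-voom 41, both total-count scalings 1 lower, and left-out libraries 0 to 68 higher and 0 to 1 lower. Within Huh7, the total-count scalings called 19 and 23 higher and 2 and 2 lower, and left-out libraries 12 to 67 higher. For Hep3B minus SNU449, no filter called 6, DESeq2 7 and left-out libraries 0 to 37. For Huh7 minus SNU449, DESeq2 size factors called 0, the total-count scalings 1 and 1, no filter 20, DESeq2 28, limma-voom 8, and left-out libraries 0 to 55 higher and 0 to 1 lower. The causes were not tested.

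Signs turned in values that were not called. The median of Huh7 minus Hep3B was -0.056 and -0.061 under the total-count scalings, and ran from -0.363 (without the Huh7 500 nM library) to 0.355 (without the Huh7 250 nM library), with -0.080 without the Hep3B 250 nM library. At 500 nM, RPL14 was -0.28 and -0.19 and RPL17 -0.22 and -0.12 under the total-count scalings, and RPL7A was 0.043 without SNU449. RPS27L was 0.0146 with DESeq2 size factors and with DESeq2, 0.012 without the SNU449 500 nM library, 0.209 without Huh7, 0.051 without the Huh7 500 nM library and 0.0056 on the 6 libraries of the comparison.

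With total-count scaling the median log2 fold change of the group was 0.34 at 500 nM, 0.56 within Hep3B and 0.51 within Huh7. RPL39L was called lower within Huh7 in all 14 alternatives, from -2.12 to -1.43. A lone treated library is assumed to vary like the other lines.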

Other observations

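Ribosomal protein genes have many processed copies: GENCODE v29 lists 1132 numbered pseudogenes of 76 of the rows. Pseudogene rows of the table took 0.482 counts per 100 ribosomal protein counts in the Hep3B control and 0.550 at 500 nM, 0.374 and 0.471 in Huh7, and 0.329 and 0.359 in SNU449. By position, 28 rows overlapped another tested protein-coding gene on either strand, among them RPL17 with C18orf32, RPLP2 with PIDD1 and RPL18 with SPHK2. No label tells whether counting used strand, so reads of such neighbours cannot be told apart.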
